A study of Sus scrofa with 19 samples.

Results

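The proteasome genes are described here across 19 libraries of pig myocardium. Members were the genes whose symbol in the table of the authors starts with PSMA, PSMB, PSMC, PSMD, PSME, PSMF or PSMG and a digit, joined by Ensembl identifier to the raw count files, which gave 45 of the 25879 genes counted. They comprised 6 alpha and 7 beta subunits of the 20S core, 3 catalytic subunits of the immunoproteasome, 6 ATPases and 10 other subunits of the 19S particle, 4 activators, 1 inhibitor, 6 assembly chaperones (3 of the 19S and 3 of the 20S particle), and 2 genes, PSMC3IP and PSME3IP1, whose products interact with a member but are no subunit. PSMA6, PSMA8, PSMB11, PSMD2 and PSMG1 carry no symbol in that table and are not analysed here. All 45 members passed the filter on low counts.

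Each library came from 1 Large White pig and is labelled as left ventricle of a female. The 5 groups carried no transgene. The DOX group (n = 5) received doxorubicin and the MYO group (n = 5) Myocet, a liposomal form of the same drug, at 60 mg/m2 in 3 cycles, followed for 3 months and ended early because of poor health, with the anterior wall sampled. RemoLV (n = 3) had a reperfused infarction after 90 min of balloon occlusion of the coronary artery and gave remote posterior wall at 6 months. Hyper (n = 3) had a stent in the descending aorta that became a relative stenosis as the animal grew, with the anterior wall sampled at 6 months. Control (n = 3) was anterior wall at 6 months, called sham-operated in the labels and untreated in the study's methods. DOX and MYO libraries came from an earlier study and were followed for 3 months against 6 in the other groups. Study, follow-up time and drug therefore cannot be told apart. These are bulk samples, in which fewer cells of a type and less RNA per cell cannot be told apart.

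The proteasome is the large protease that degrades most ubiquitin-tagged proteins. Its 20S core is a barrel of stacked alpha and beta rings, in which PSMB5, PSMB6 and PSMB7 carry the proteolytic sites. The 19S particle caps the barrel, binds and deubiquitinates the substrate, and unfolds it with a ring of ATPases. Interferons induce PSMB8, PSMB9 and PSMB10, which replace PSMB5, PSMB6 and PSMB7 respectively in newly assembled cores and form the immunoproteasome, which favours peptides for class I presentation. Cardiac muscle depends on this system to turn over sarcomeric proteins.

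Total counts ran from 9527710 to 20370209 per library. The group names disagree between the files. In the expression table of the authors, 8 of the 19 columns match the counts of a file of another group: the 3 Control and the 3 RemoLV columns are exchanged, as are 1 DOX and 1 MYO column. Groups below follow the count files. Values under the table names are given for the member counts and, against Control, for the genes described by library in most groups. DOX and MYO against Hyper draw on the same libraries under both namings, and this comparison is given first. The libraries labelled RemoLV went against their label: MYL2, the ventricular regulatory light chain, was at 18.6 to 115 CPM there (read counts relative to the TMM-scaled library size) against 8975 CPM or more elsewhere, and MYL4, the atrial light chain, was at 6029 to 8130 CPM against 21.9 CPM or less. The Y-linked DDX3Y was at 96.1 to 177 CPM in every DOX and MYO library and at 0.137 CPM or less in the others, against the label of female animals. Sex as read from this gene cannot be told apart from the drug in DOX or MYO against Control or Hyper. This includes the comparison given first.

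Promoters of 6 members described in full below are shown first: 3 that were lower, with different roles in the particle, and the 3 immunoproteasome genes, of which PSMB10 was called in no comparison. Each is the 300 bases from 250 before to 50 after the RefSeq start in Sscrofa11.1, printed 5′ to 3′ on the strand of the gene, and was available for 44 members. Capitals mark the matches to 4 patterns on either strand: the antioxidant response element TGACNNNGC, the CCAAT box, the core of the interferon-stimulated response element (GAAA, any 2 bases and GAAA again) and the gamma-activated site TTCNNNGAA. The first 3 sequences are those of PSME4, PSMC5 and PSMD14, which were lower in DOX, MYO and RemoLV than in Control.
PSME4, chr3:87231260-87231559, plus strand: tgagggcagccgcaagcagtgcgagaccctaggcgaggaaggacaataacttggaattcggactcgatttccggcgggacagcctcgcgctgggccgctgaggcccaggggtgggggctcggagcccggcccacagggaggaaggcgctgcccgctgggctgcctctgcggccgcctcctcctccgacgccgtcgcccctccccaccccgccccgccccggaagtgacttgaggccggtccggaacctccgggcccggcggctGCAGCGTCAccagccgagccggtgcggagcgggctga
PSMC5, chr12:15106277-15106576, minus strand: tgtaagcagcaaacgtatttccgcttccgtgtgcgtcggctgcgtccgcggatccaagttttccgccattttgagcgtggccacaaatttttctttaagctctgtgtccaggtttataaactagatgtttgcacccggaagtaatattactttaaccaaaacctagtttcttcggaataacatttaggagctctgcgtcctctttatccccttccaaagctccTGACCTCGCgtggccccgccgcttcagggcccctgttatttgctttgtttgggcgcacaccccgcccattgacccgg
PSMD14, chr15:68107129-68107428, plus strand: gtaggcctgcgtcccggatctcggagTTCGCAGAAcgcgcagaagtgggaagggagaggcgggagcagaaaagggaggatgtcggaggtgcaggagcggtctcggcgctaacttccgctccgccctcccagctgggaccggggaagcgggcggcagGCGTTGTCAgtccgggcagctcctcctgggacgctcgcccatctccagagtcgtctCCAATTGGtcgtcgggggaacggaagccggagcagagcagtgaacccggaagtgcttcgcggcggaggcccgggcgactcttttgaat
The other 3 are those of the immunoproteasome genes.
PSMB8, chr7:25061617-25061916, minus strand: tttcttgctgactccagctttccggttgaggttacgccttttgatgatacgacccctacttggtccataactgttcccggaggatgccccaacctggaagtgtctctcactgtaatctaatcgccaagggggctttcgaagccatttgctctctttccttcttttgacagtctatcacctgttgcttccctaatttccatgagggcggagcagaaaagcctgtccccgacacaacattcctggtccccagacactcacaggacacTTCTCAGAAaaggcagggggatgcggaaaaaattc
PSMB9, chr7:25071883-25072182, plus strand: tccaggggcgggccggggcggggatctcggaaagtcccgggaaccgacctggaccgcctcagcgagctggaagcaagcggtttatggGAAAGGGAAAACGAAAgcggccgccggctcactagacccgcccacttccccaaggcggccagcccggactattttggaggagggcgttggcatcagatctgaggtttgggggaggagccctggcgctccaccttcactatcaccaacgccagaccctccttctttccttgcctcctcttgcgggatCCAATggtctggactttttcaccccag
PSMB10, chr6:28547560-28547859, minus strand: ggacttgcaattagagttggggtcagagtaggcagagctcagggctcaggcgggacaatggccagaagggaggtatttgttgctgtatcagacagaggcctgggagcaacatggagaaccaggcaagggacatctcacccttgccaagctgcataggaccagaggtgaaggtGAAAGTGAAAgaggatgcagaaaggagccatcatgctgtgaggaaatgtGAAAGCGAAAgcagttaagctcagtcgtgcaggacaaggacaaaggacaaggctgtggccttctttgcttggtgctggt
PSME4, PSMC5 and PSMD14 each held a match to the antioxidant response element, as did PSMB6 and PSMB7, which made 5 of 44 members (11.4%) against 12.4% of 19527 promoters of protein-coding genes. PSMB9 and PSMB10 each held 2 matches to the interferon-stimulated core, which also occurred in PSMC4, PSME1 and PSME2 (11.4% of members against 3.57% of all promoters). PSMB8 held 1 match to the gamma-activated site, found in 13.6% of member promoters and 7.11% of all. The CCAAT box was in 40.9% of member promoters and 35.4% of all. Such matches describe letters in this window and are not binding sites.

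Most subunit genes of the core and of the 19S particle were lower in the anthracycline libraries than in Hyper, while PSMB8 was higher. At an edgeR adjusted p of at most 0.05, 30 of the 45 members were lower and 1 was higher in DOX and MYO, whereas 16.9% of the 13552 genes tested were called lower and 15.8% higher. The median log2 fold change of the members was -0.42, against 0.03 over all genes. In 28 members every one of the 10 drug-treated libraries lay below every Hyper library, which 11.0% of all genes also showed.

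Against Control, 26 members were lower and 2 higher in DOX (21.1% and 21.0% of all genes), 24 lower and 1 higher in MYO (21.7% and 20.7%), and 25 lower and 0 higher in RemoLV (24.0% and 23.1%). With the replicate number as a block, 23 members were lower and 1 higher in DOX, a fit for which the shares of all genes are not given here. These comparisons share the 3 Control libraries. No member was higher in RemoLV at an unadjusted p below 0.05 either, and DESeq2 also called 0 higher. Median log2 fold changes of the members were -0.37, -0.30 and -0.43, against 0.03, 0.02 and 0.02 over all genes. No member reached the absolute log2 fold change of 2 that the study used for differentially expressed genes, and the largest in any comparison was 1.03. Over the 5 groups, 33 members differed in edgeR's quasi-likelihood F-test, against 63.3% of all genes.

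**Figure D1:**
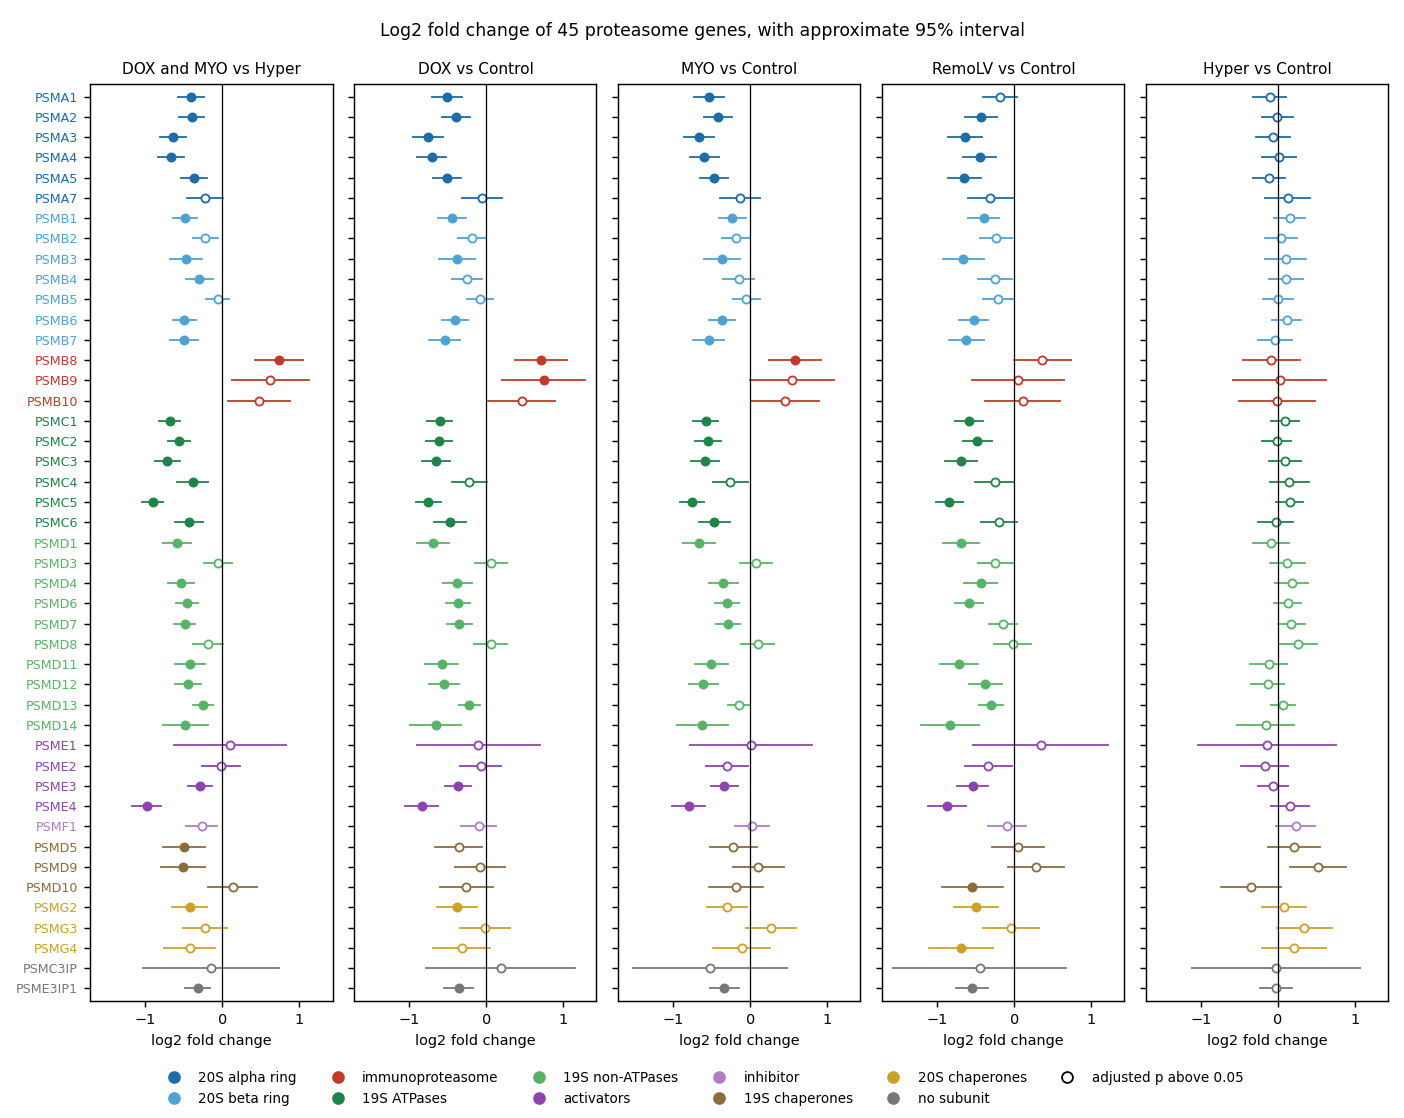
Log2 fold change (x axis) of each of the 45 members (y axis, coloured by role) in 5 comparisons. Points are edgeR estimates, lines approximate 95% intervals, and open points have an adjusted p above 0.05. Most core and 19S genes lie left of 0 in the first 4 panels, the 3 immunoproteasome genes lie right of it, and the Hyper panel has no filled point.

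Under the table names these counts differed. DOX against Control then gave 2 members higher and 1 lower, MYO against Control 3 higher and 2 lower, RemoLV against Control 25 higher and 0 lower, and Hyper against Control 29 higher and 0 lower, while DOX and MYO against Hyper gave 1 higher and 32 lower. All genes called higher and lower were then 15.0% and 14.6% in DOX, 14.8% and 14.4% in MYO, 24.0% and 23.2% in RemoLV and 18.7% and 17.2% in Hyper. In DOX and MYO against Hyper they were 15.8% and 16.9%. By role, the calls in DOX were PSMA1 lower and PSMD3 and PSMD6 higher, and those in MYO were PSMA1 and PSMD12 lower and PSMD3, PSMD6 and PSMG4 higher. No beta subunit, ATPase, immunoproteasome gene or activator was called in DOX or MYO against Control under these names, so the counts by role against Control given below rest on the names of the count files. Of the 65 called values of single genes in the text, 15 kept direction and call under these names, 20 lost the call and 30 changed sign. The RemoLV values against Control change sign as a whole, since these groups are exchanged. Fitted without the 3 libraries labelled RemoLV, DOX gave 2 members higher and 27 lower than Control, MYO 1 and 24, and DOX and MYO 1 and 30 against Hyper. The shares of all genes called in that fit are not given here.

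Scaling also mattered. The main values were scaled by TMM factors, which were 0.696 to 0.965 in Control and 0.834 to 0.954 in Hyper but 0.972 to 1.18 in the other groups. The 10 most abundant genes held 24.6% to 33.7% of counts in Control and 24.0% to 30.7% in Hyper, against 17.9% to 24.0% in DOX, 18.5% to 24.2% in MYO and 20.0% to 23.9% in RemoLV. The part of this in the result was not tested. With library totals alone, the median log2 fold change of all genes moved, against Control, to 0.45 for DOX, 0.44 for MYO and 0.52 for RemoLV, and to 0.29 in DOX and MYO against Hyper. Of the members, 9 were then called higher and 4 lower in DOX, 11 and 2 in MYO, 9 and 2 in RemoLV, and 4 and 9 in DOX and MYO against Hyper. All genes called higher and lower under this scaling were 41.5% and 5.2% in DOX, 40.6% and 5.56% in MYO, 45.6% and 7.66% in RemoLV and 28.7% and 5.61% in DOX and MYO against Hyper. Of the 65 called values of single genes, 39 kept the call, 24 lost it and 2 changed sign. PSMC5, PSME4, POMP and USP14 kept it in each comparison in which they were called, and PSMB7 and PSMD14 in none. The median of the members was 0.07, 0.14, 0.08 and -0.15. Relative to all genes it lay lower by a log2 difference of -0.38, -0.31, -0.44 and -0.44, compared with -0.40, -0.32, -0.45 and -0.45 under TMM. The share of all counts held by the members was 0.259% to 0.282% in DOX, 0.249% to 0.296% in MYO, 0.267% to 0.290% in RemoLV, 0.294% to 0.328% in Hyper and 0.241% to 0.308% in Control.

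**Figure D2:**
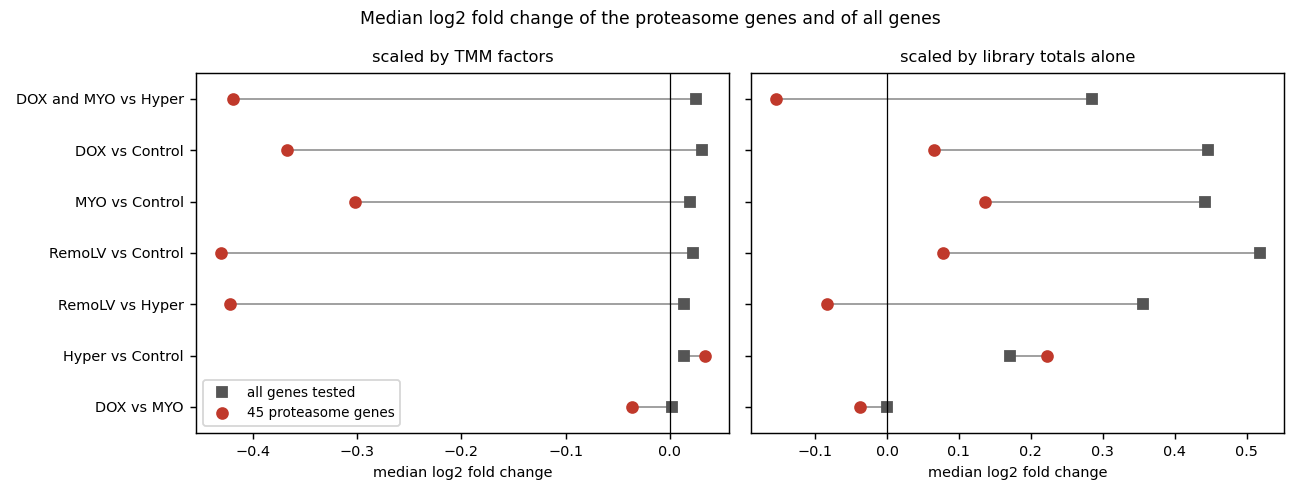
Median log2 fold change (x axis) of the 45 members (circles) and of all genes tested (squares) for 7 comparisons (y axis), scaled by TMM factors on the left and by library totals alone on the right. The gap between circle and square in DOX against Control is -0.40 on the left and -0.38 on the right, although both points lie further right with library totals.

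Of the 6 alpha subunits, which form the outer rings and the gate of the core, 5 were lower in DOX and in MYO than in Control, 4 in RemoLV, and 5 in DOX and MYO against Hyper. PSMA7 was called in none of these 4. PSMA3 moved most against Control in DOX. It was at 66.2, 61.8, 62.5, 64.4 and 70.8 in DOX, 77.3, 62.8, 67.1, 67.3 and 72.2 in MYO, 68.7, 75.8 and 66.6 in RemoLV, 126, 98.8 and 90.04 in Hyper and 110.0, 105 and 114 in Control CPM. All 13 DOX, MYO and RemoLV libraries lay below the 6 others. Its log2 fold change was -0.75 ± 0.10 (SE), adjusted p = 2.27e-05 in DOX, -0.66 ± 0.10 (SE), adjusted p = 7.55e-05 in MYO, -0.64 ± 0.11 (SE), adjusted p = 0.000201 in RemoLV and -0.64 ± 0.09 (SE), adjusted p = 3.35e-05 for DOX and MYO against Hyper. PSMA3 under the table names had -0.08 in DOX, -0.05 in MYO and 0.64 in RemoLV against Control.

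Of the 7 constitutive beta subunits, 4 (PSMB1, PSMB3, PSMB6 and PSMB7) were lower than in Control in each of DOX, MYO and RemoLV, and PSMB4 joined them against Hyper. Of the 3 catalytic genes, PSMB6 and PSMB7 were called and PSMB5 was not, and the difference between them was not tested. PSMB6, with the caspase-like site, was at 82.4, 83.9, 79.99, 81.2 and 79.5 in DOX, 92.7, 85, 82.9, 81.98 and 75.7 in MYO, 74.03, 83.1 and 66.8 in RemoLV, 108, 119 and 122 in Hyper and 116, 101 and 106 in Control CPM. PSMB7, with the trypsin-like site, was at 96.5, 90.6, 79.9, 83.4 and 87.3 in DOX, 97.6, 82.2, 91.2, 80.5 and 86.3 in MYO, 82.5, 91.6 and 73.3 in RemoLV, 121, 124 and 126 in Hyper and 140.2, 106 and 135 in Control CPM. In both genes the DOX, MYO and RemoLV libraries lay below every Hyper and Control library. PSMB6 had a log2 fold change of -0.40 ± 0.09 (SE), adjusted p = 0.00136 in DOX, -0.36 in MYO and -0.53 in RemoLV against Control, and -0.49 ± 0.08 (SE), adjusted p = 0.000106 in DOX and MYO against Hyper. PSMB7 had -0.54 ± 0.10 (SE), adjusted p = 0.000526 in DOX, -0.54 in MYO, -0.62 in RemoLV and -0.50 ± 0.09 (SE), adjusted p = 0.00047 against Hyper. With library totals alone the PSMB6 value turned to 0.03 in DOX and 0.07 in MYO, below the all-gene shifts given above. PSMB6 under the table names had 0.17 in DOX, 0.12 in MYO and 0.53 in RemoLV against Control, and PSMB7 had 0.12, 0.05 and 0.62. PSMB5, with the chymotrypsin-like site, was at 100.2, 93.3, 92.6, 87.8 and 83.3 in DOX, 98.3, 91.2, 95.6, 94.3 and 87.1 in MYO, 83.4, 88.6 and 77.9 in RemoLV, 90.97, 101 and 96.7 in Hyper and 106, 84.7 and 98.9 in Control CPM. It was not called, and its groups overlapped except that the RemoLV libraries lay below Hyper. Its log2 fold change was -0.08 (approximate 95% interval -0.25 to 0.09) in DOX, -0.05 (approximate 95% interval -0.22 to 0.12) in MYO, -0.21 (approximate 95% interval -0.41 to -0.02) in RemoLV and -0.06 (approximate 95% interval -0.22 to 0.09) in DOX and MYO against Hyper. PSMB5 under the table names had 0.18 in DOX, 0.12 in MYO and 0.21 in RemoLV against Control, and was not called.

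The 6 ATPases of the 19S base unfold the substrate. All 6 were lower in DOX and MYO than in Hyper, with log2 fold changes from -0.90 to -0.38, and 5, 5 and 4 were lower than Control in DOX, MYO and RemoLV. PSMC5 had the smallest adjusted p among members in DOX, MYO and RemoLV against Control and in DOX and MYO against Hyper. It was at 123, 118, 113, 104 and 119.9 in DOX, 126, 112, 118, 105 and 116 in MYO, 113, 109 and 104 in RemoLV, 215, 226 and 207 in Hyper and 201, 195 and 187 in Control CPM. The highest of the 13 DOX, MYO and RemoLV libraries, at 126 CPM, was well below the lowest Control library at 187 CPM. The log2 fold change of PSMC5 was -0.90 ± 0.07 (SE), adjusted p = 3.37e-08 for DOX and MYO against Hyper, -0.75 ± 0.08 (SE), adjusted p = 2.55e-06 in DOX, -0.75 ± 0.08 (SE), adjusted p = 2.41e-06 in MYO and -0.84 ± 0.09 (SE), adjusted p = 1.72e-06 in RemoLV. PSMC3 was at 123, 118, 108, 113 and 132 in DOX, 120.5, 131, 128, 116 and 126 in MYO, 116, 124 and 108 in RemoLV, 214, 209.8 and 174 in Hyper and 194, 197 and 171 in Control CPM, again without overlap between those libraries, and had a log2 fold change of -0.71 ± 0.08 (SE), adjusted p = 4.25e-06 against Hyper. PSMC5 under the table names had 0.11 in DOX, 0.07 in MYO and 0.84 in RemoLV against Control, and PSMC3 0.01, 0.13 and 0.69. PSMC1 and PSMC2 were lower than Control in each of DOX, MYO and RemoLV. PSMC6 was lower in DOX and MYO, and had -0.19 in RemoLV (edgeR adjusted p = 0.193). PSMC4 was not called against Control in any group.

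Of the 10 other 19S subunits, 8 were lower in DOX, 7 in MYO and 7 in RemoLV than in Control, and 8 were lower in DOX and MYO than in Hyper. PSMD3 and PSMD8 were not called in any of these 4. PSMD1, the scaffold that receives ubiquitin receptors, was at 106, 90.99, 101, 87.6 and 98.4 in DOX, 108, 97.8, 99.7, 86.2 and 99.8 in MYO, 102, 103 and 86.02 in RemoLV, 159, 133 and 148 in Hyper and 171, 131 and 167 in Control CPM. Its DOX, MYO and RemoLV libraries all lay below the Hyper and Control libraries, and its log2 fold change was -0.69 ± 0.10 (SE), adjusted p = 7.93e-05 in DOX, -0.67 ± 0.10 (SE), adjusted p = 0.000104 in MYO and -0.59 ± 0.09 (SE), adjusted p = 0.000125 against Hyper. PSMD14, the deubiquitinase that removes the ubiquitin chain, was at 44.1, 39.3, 39.99, 39.9 and 40 in DOX, 49.6, 41.8, 39.99, 33.2 and 43.9 in MYO, 43.9, 37.9 and 26.2 in RemoLV, 64.8, 52.7 and 54.9 in Hyper and 71.5, 44.5 and 76.9 in Control CPM. Control replicate 2 lay near the treated libraries and below 1 MYO library, whereas the other Control libraries lay far above. The log2 fold change of PSMD14 was -0.66 ± 0.17 (SE), adjusted p = 0.00457 in DOX, -0.62 ± 0.17 (SE), adjusted p = 0.00644 in MYO, -0.83 ± 0.19 (SE), adjusted p = 0.00171 in RemoLV and -0.48 ± 0.15 (SE), adjusted p = 0.0196 against Hyper. Its call was lost without Control replicate 3 in MYO (log2 fold change -0.47, adjusted p = 0.0644) and without Hyper replicate 1 in DOX and MYO against Hyper (-0.39, adjusted p = 0.14). PSMD1 under the table names had 0.03 in DOX, -0.01 in MYO and 0.69 in RemoLV against Control, and PSMD14 0.24, 0.14 and 0.83.

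**Figure D3:**
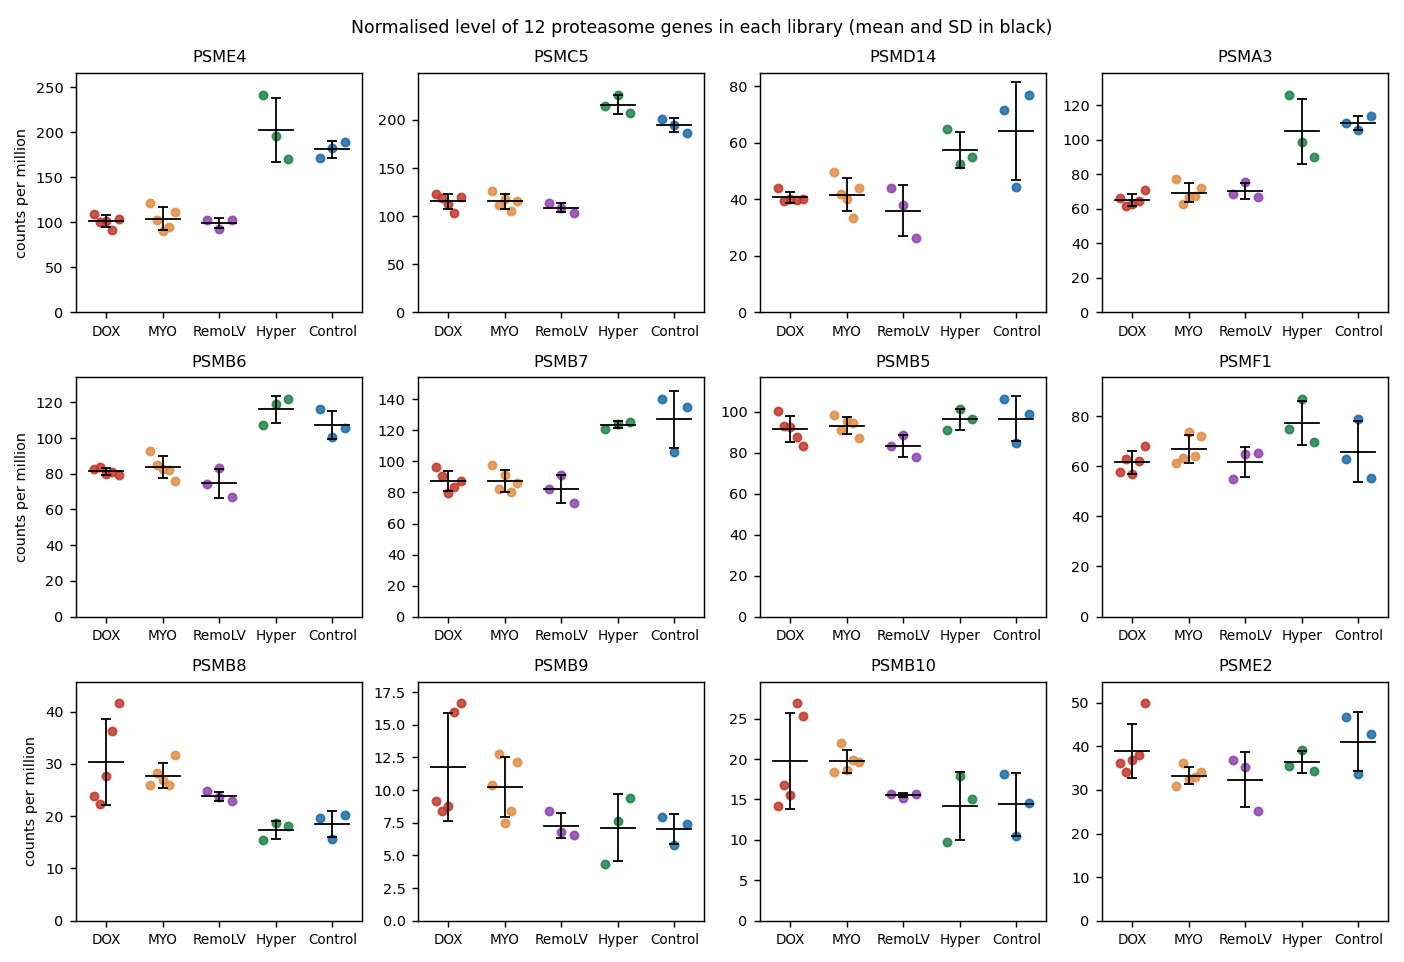
Normalised level in CPM (y axis, from 0) of 12 members in each of the 19 libraries (points), by group (x axis), with the group mean and SD in black. PSME4 and PSMC5 separate the DOX, MYO and RemoLV libraries from Hyper and Control, PSMB5 does not, and PSMB8 and PSMB9 are highest in DOX replicates 4 and 5.

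The immunoproteasome genes lay in the other direction. PSMB8 and PSMB9 lie close together on chromosome 7, at 25058456 to 25061666 and 25072133 to 25077508 of Sscrofa11.1, and PSMB10 on chromosome 6, at 28544910 to 28547609. PSMB8 was at 23.9, 22.4, 27.7, 36.3 and 41.6 in DOX, 25.98, 28.2, 26.9, 26.1 and 31.6 in MYO, 24.8, 23.7 and 23 in RemoLV, 15.5, 18.7 and 18.1 in Hyper and 19.6, 15.7 and 20.2 in Control CPM. Every DOX, MYO and RemoLV library lay above every Hyper and Control library. Its log2 fold change was 0.72 ± 0.17 (SE), adjusted p = 0.00294 in DOX, 0.58 ± 0.17 (SE), adjusted p = 0.0105 in MYO and 0.74 ± 0.16 (SE), adjusted p = 0.00179 against Hyper, and 0.37 ± 0.19 (SE), adjusted p = 0.116 in RemoLV. PSMB9 was at 9.17, 8.40, 8.80, 15.95 and 16.6 in DOX, 10.4, 12.7, 7.48, 8.40 and 12.2 in MYO, 8.37, 6.82 and 6.60 in RemoLV, 4.33, 7.60 and 9.39 in Hyper and 7.91, 5.76 and 7.41 in Control CPM. DOX replicates 4 and 5 were the highest, and the DOX libraries lay above Control but overlapped Hyper. PSMB9 was higher in DOX (0.75 ± 0.28 (SE), adjusted p = 0.0373), a call lost without DOX replicate 4 (log2 fold change 0.61, adjusted p = 0.0915), DOX replicate 5 (0.60, 0.0892) or any one Control library (0.84, 0.62 and 0.79, with adjusted p = 0.0569, 0.121 and 0.0828), and also when only the libraries of DOX and Control were fitted (0.75, adjusted p = 0.0676), without the DOX and MYO libraries that carry exchanged names (0.60, adjusted p = 0.101) and with the replicate number as a block (0.52, adjusted p = 0.184). PSMB8 under the table names had 0.20 in DOX (edgeR adjusted p = 0.391) and 0.37 in MYO (0.0993), and PSMB9 had 0.54 in DOX (0.156). Under the names of the count files, the log2 fold change of PSMB9 in MYO was 0.55 ± 0.28 (SE), adjusted p = 0.121. PSMB10 was at 14.2, 16.8, 15.5, 26.9 and 25.4 in DOX, 18.4, 21.96, 18.7, 19.9 and 19.6 in MYO, 15.7, 15.2 and 15.7 in RemoLV, 9.69, 17.9 and 15.1 in Hyper and 18.2, 10.5 and 14.5 in Control CPM. The MYO libraries lay above Control and the DOX libraries overlapped it. Its log2 fold change was 0.46 ± 0.22 (SE), adjusted p = 0.108 in DOX and 0.46 ± 0.22 (SE), adjusted p = 0.11 in MYO. PSMB10 under the table names had 0.24 in DOX, 0.44 in MYO and -0.11 in RemoLV against Control, none of them called.

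Since each of these subunits replaces a constitutive one, the ratio of their read counts within a library was tested, which does not depend on the scaling. PSMB8 amounted to 18.5% to 20.4% of PSMB5 counts in Control, 17.0% to 18.7% in Hyper, 23.9% to 49.9% in DOX, 26.4% to 36.3% in MYO and 26.8% to 29.7% in RemoLV. PSMB9 amounted to 5.71% to 7.01% of PSMB6 in Control, 4.02% to 7.71% in Hyper, 10.01% to 20.9% in DOX, 9.02% to 16.1% in MYO and 8.21% to 11.3% in RemoLV. PSMB10 amounted to 9.87% to 12.99% of PSMB7 in Control, 7.99% to 14.4% in Hyper, 14.7% to 32.2% in DOX, 18.8% to 26.7% in MYO and 16.6% to 21.4% in RemoLV. For all 3 pairs, every DOX, MYO and RemoLV library lay above every Hyper and Control library. Both genes of a pair enter the ratio. In RemoLV against Control, PSMB9 had a log2 fold change of 0.05 (edgeR adjusted p = 0.903) and PSMB6 -0.53. PSMB10 was called in no comparison, whereas PSMB7 was lower in DOX, MYO and RemoLV. PSMB8 was higher in DOX and MYO, and PSMB5 was not called.

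In exact two-sided permutation tests, adjusted over 15 tests, DOX and MYO (n = 10) exceeded Hyper (n = 3) by 0.78 on the log2 scale for PSMB8 to PSMB5 (adjusted p = 0.035), 1.15 for PSMB9 to PSMB6 (0.0262) and 0.99 for PSMB10 to PSMB7 (0.0262). By the same exact permutation tests, MYO exceeded Control by 0.63, 0.89 and 1.02 in that order (adjusted p = 0.0383 for each), and DOX exceeded Control by 0.76 (0.067), 1.09 (0.0383) and 0.97 (0.0893). RemoLV exceeded Control by 0.58, 0.58 and 0.77, and Hyper differed from Control by -0.09, -0.16 and 0.00. With 3 against 3 libraries an exact permutation p cannot go below 0.1, so these 6 tests could not pass. Leaving out any one Control library ended each of the 4 calls against Control (adjusted p = 0.119 to 0.136 by the exact permutation test), where fewer arrangements remain, while the differences were 0.61 to 0.68 for PSMB8, 0.80 to 0.95 for PSMB9 and 0.93 to 1.13 for PSMB10 in MYO, and 1.00 to 1.15 for PSMB9 in DOX. Against Hyper, the PSMB8 call was lost without any one Hyper library (0.74 to 0.81, adjusted p = 0.0649), and the PSMB9 and PSMB10 calls without Hyper replicate 1 (0.88 and 0.75, adjusted p = 0.0649 and 0.0536, exact permutation tests). Under the table names the differences from Control were, in the same order, -0.01, 0.33 and 0.08 in DOX, 0.24, 0.49 and 0.38 in MYO, -0.58, -0.58 and -0.77 in RemoLV and -0.67, -0.74 and -0.76 in Hyper, none past the threshold.

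**Figure D4:**
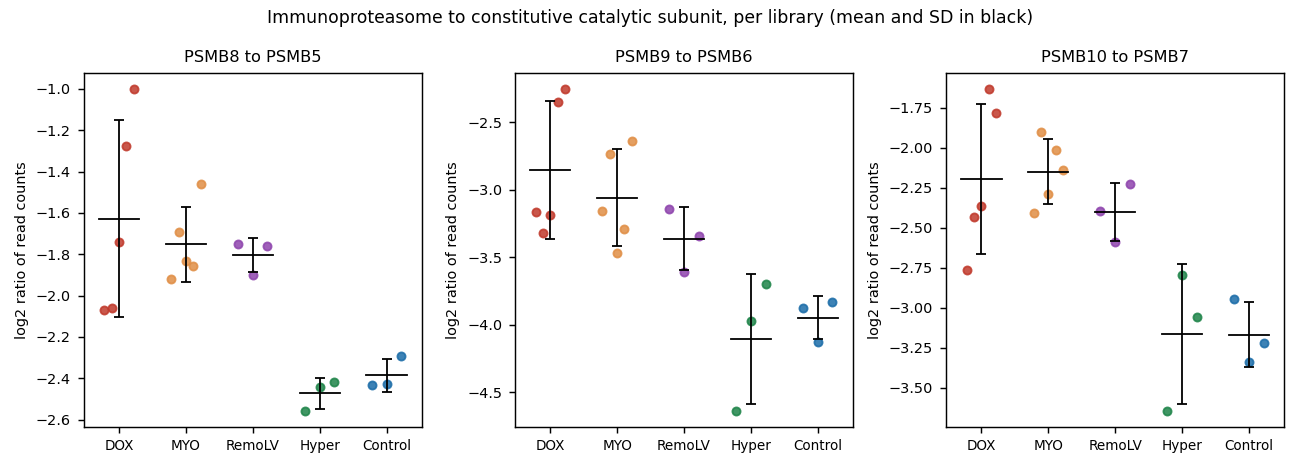
Log2 ratio of read counts (y axis) of each immunoproteasome catalytic gene to the constitutive gene it replaces, in each library (points), by group (x axis), with the group mean and SD in black. DOX and MYO exceed Hyper by 0.78, 1.15 and 0.99 in the 3 panels.

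Immune cells carry these genes at high levels. Of 10 leukocyte markers, 5 were higher and 1 lower in DOX than in Control, 2 higher and 1 lower in MYO, 2 higher and 2 lower in RemoLV, and 3 higher and 1 lower in DOX and MYO against Hyper. Of all genes, 21.0%, 20.7%, 23.1% and 15.8% were higher in these 4 comparisons, so that the shares in MYO and RemoLV were near or below the background. Their summed level was 505 to 883 CPM in DOX, 576 to 719 in MYO, 477 to 572 in RemoLV, 437 to 605 in Hyper and 504 to 694 in Control, and no marker was at 0. Under the table names none was called in DOX against Control. Of 5 fibroblast markers, 2 were higher and 0 lower in DOX, 2 and 1 in MYO, 3 and 0 in RemoLV, 4 and 0 in RemoLV against Hyper, and 2 and 0 in DOX and MYO against Hyper, and their sum was 3977 to 5794 CPM in DOX, 3861 to 5437 in MYO, 8798 to 10059 in RemoLV, 1320 to 3245 in Hyper and 1725 to 2937 in Control. Of 4 proliferation markers, 2 were higher in each of DOX, MYO and RemoLV than in Control. Of 5 endothelial markers, 1 was higher and 2 lower in DOX, 0 and 1 in MYO and 0 and 2 in RemoLV. Both red blood cell markers tested were lower in DOX and in RemoLV, and none was called in MYO. All 5 ventricular markers tested were lower in RemoLV, and 1 was higher in each of DOX and MYO. Of 4 atrial markers tested, 2 were higher in DOX, 2 in MYO and 4 in RemoLV, with a sum of 1106 to 2404 CPM in DOX, 760 to 1239 in MYO, 9426 to 12703 in RemoLV, 193 to 1251 in Hyper and 84.7 to 139 in Control, while BMP10 was at 3 counts or fewer in every library. The part of these cells in the ratios was not tested.

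Among the activators, PSME4 had the largest fall of any member. Its product, PA200, opens the core without ATP or ubiquitin and binds acetylated histones. PSME4 was at 109.7, 100.1, 101, 91.4 and 104 in DOX, 121, 102, 90.3, 94.4 and 112 in MYO, 102, 93 and 102 in RemoLV, 241, 195 and 170.4 in Hyper and 171, 183 and 189.6 in Control CPM. The highest of the DOX, MYO and RemoLV libraries, at 121 CPM, lay below the lowest of the Hyper and Control libraries, at 170.4 CPM. Its log2 fold change was -0.84 ± 0.11 (SE), adjusted p = 2.16e-05 in DOX, -0.80 ± 0.11 (SE), adjusted p = 3.52e-05 in MYO, -0.87 ± 0.13 (SE), adjusted p = 3.32e-05 in RemoLV, -0.98 ± 0.10 (SE), adjusted p = 7.86e-07 for DOX and MYO against Hyper and -1.03 ± 0.13 (SE), adjusted p = 7.98e-06 for RemoLV against Hyper. PSME4 under the table names had 0.08 in DOX, 0.02 in MYO and 0.87 in RemoLV against Control. PSME3, the nuclear activator REG gamma, was also lower in each of DOX, MYO and RemoLV than in Control.

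The interferon-inducible activator PA28 is built from PSME1 and PSME2, which are neighbours on chromosome 7. PSME2 was at 36.2, 34.2, 36.8, 37.95 and 49.8 in DOX, 30.9, 36.1, 32.4, 32.9 and 34.01 in MYO, 36.7, 35.2 and 25.1 in RemoLV, 35.5, 39.1 and 34.3 in Hyper and 46.7, 33.6 and 42.9 in Control CPM. All groups overlapped and it was not called, with a log2 fold change of -0.07 (approximate 95% interval -0.35 to 0.20) in DOX, -0.30 (approximate 95% interval -0.57 to -0.03) in MYO, -0.34 (approximate 95% interval -0.65 to -0.03) in RemoLV and -0.01 (approximate 95% interval -0.26 to 0.23) in DOX and MYO against Hyper. PSME1 was at 0.374, 1.27, 1.73, 1.34 and 2.02 in DOX, 1.03, 1.66, 2.26, 1.30 and 0.931 in MYO, 2.32, 1.64 and 1.52 in RemoLV, 1.31, 1.66 and 0.939 in Hyper and 1.94, 1.19 and 1.20 in Control CPM, from 6 to 33 reads per library, and had a log2 fold change of -0.10 (approximate 95% interval -0.90 to 0.70) in DOX and 0.10 (approximate 95% interval -0.63 to 0.83) in DOX and MYO against Hyper, so that only large changes were detectable at this depth. With the table names PSME2 had 0.12 in DOX, 0.19 in MYO and 0.34 in RemoLV against Control, and PSME1 had -0.67, -0.16 and -0.35, with neither called. PSMF1, which encodes the inhibitor PI31, was at 57.6, 62.8, 56.99, 62.2 and 68.2 in DOX, 61.2, 63.2, 73.6, 64.2 and 72.3 in MYO, 54.9, 64.7 and 65.4 in RemoLV, 74.96, 86.8 and 69.8 in Hyper and 63, 79.04 and 55.4 in Control CPM. The DOX and the RemoLV libraries lay below Hyper, and the other groups overlapped. PSMF1 was not called in any comparison, and its log2 fold change was -0.10 (approximate 95% interval -0.32 to 0.13) in DOX, -0.32 (approximate 95% interval -0.58 to -0.07) in RemoLV against Hyper and -0.27 (approximate 95% interval -0.47 to -0.07) against Hyper. PSMF1 under the table names had -0.04 in DOX, 0.15 in MYO and 0.09 in RemoLV against Control, none called, and edgeR called it in Hyper against Control (0.32, adjusted p = 0.046) and in DOX and MYO against Hyper (-0.27, adjusted p = 0.0408).

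The assembly chaperones gave few calls in DOX and MYO against Control, where 21.1% and 21.7% of all genes were lower. They gave more in RemoLV against Control and in DOX and MYO against Hyper, where 24.0% and 16.9% of all genes were lower. Of the 3 chaperones of the 19S base, none was called in DOX or MYO against Control, where edgeR gave adjusted p from 0.0731 upwards, PSMD10 was lower in RemoLV, and PSMD5 and PSMD9 were lower in DOX and MYO than in Hyper. Of the 3 of the 20S core, PSMG2 was lower in DOX and RemoLV than in Control and in DOX and MYO than in Hyper. PSMG4 was at 12.05, 10.9, 12.1, 13.2 and 16.7 in DOX, 13.8, 16.3, 13.05, 16.97 and 14.7 in MYO, 8.94, 10.9 and 10.2 in RemoLV, 11.7, 22.5 and 21.9 in Hyper and 19.3, 13.4 and 15.9 in Control CPM. Its RemoLV libraries lay below every Control and Hyper library, and its log2 fold change was -0.69 ± 0.22 (SE), adjusted p = 0.0137 against Control and -0.90 ± 0.22 (SE), adjusted p = 0.00326 against Hyper. Under the table names these were 0.69 and -0.21. The call against Control was lost without RemoLV replicate 1 (-0.62, adjusted p = 0.0557) or without Control replicate 1 (-0.56, adjusted p = 0.0692). PSME3IP1 was lower in all 3 groups than in Control, and PSMC3IP, at a mean of 0.828 CPM, was called in none.

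Under the names of the count files, pressure overload gave no call among the members. In Hyper against Control, edgeR called 0 members, as DESeq2 did, and 0.0% of all genes. With the table names, where the libraries labelled RemoLV take the place of Control, 29 members were higher and 0 lower (18.7% and 17.2% of all genes), with a median of 0.42. In the fit with the count-file names, PSMD8 and PSMD9 alone had an unadjusted p below 0.05 by edgeR, both higher. The intervals leave room for moderate changes: the log2 fold change was 0.16 (approximate 95% interval -0.09 to 0.41) for PSME4, 0.15 (approximate 95% interval -0.03 to 0.33) for PSMC5, -0.16 (approximate 95% interval -0.53 to 0.21) for PSMD14 and -0.09 (approximate 95% interval -0.46 to 0.28) for PSMB8. Without Control replicate 2, 2 members were higher and 1 was lower in Hyper. The share of all genes called in that refit is not given here, so these counts are not read as a result about the members.

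RemoLV against Hyper gave 28 lower and 0 higher members by edgeR (18.6% and 17.0% of all genes). PSMB8 alone was higher at an unadjusted p below 0.05 (adjusted p = 0.0681), and DESeq2 called 0 higher. Lower members included 5 of 6 ATPases, 8 of 10 other 19S subunits and 10 of 13 core subunits. Under the table names, where the libraries called Control here are compared with Hyper, 0 members were called.

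No member differed between the forms of the drug past the threshold. Liposomal packaging is the named difference between Myocet and doxorubicin, and the doses were equal. In DOX against MYO, edgeR called 0 members and DESeq2 0, with 0.0% of all genes called. PSMB1 alone had an unadjusted p below 0.05, and its log2 fold change was -0.21 ± 0.08 (SE), adjusted p = 0.692. The difference was 0.00 (approximate 95% interval -0.14 to 0.14) for PSMC5, -0.04 (approximate 95% interval -0.23 to 0.15) for PSME4, -0.03 (approximate 95% interval -0.18 to 0.12) for PSMB5 and 0.13 (approximate 95% interval -0.15 to 0.41) for PSMB8. These intervals do not show that the forms act alike.

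Beyond the members, 30 of 35 listed genes of the pathway were tested. In DOX against Control 5 were higher and 11 lower, in MYO 2 and 12, in RemoLV 0 and 15, in Hyper 0 and 0, and in DOX and MYO against Hyper 8 and 10. Of these 30, the 5 and 2 higher in DOX and MYO were a smaller share than among all genes (21.0% and 20.7%). The shares of all genes called lower were 21.1%, 21.7% and 24.0% for DOX, MYO and RemoLV against Control. For DOX and MYO against Hyper the share was 16.9%. Of 8 partner and assembly genes tested, 6 were lower in DOX, 6 in MYO and 7 in RemoLV. Against Hyper, DOX and MYO had 5 of these lower and 1 higher. Of 8 genes listed as shuttles and unfoldase, 2, 2 and 4 were lower than Control in that group order, and 1, 1 and 0 higher. Of 3 regulators 1, 2 and 1 were lower, and of 4 ubiquitin supply genes 2, 1 and 2. POMP, the maturation factor of the core, fell by more than any member in DOX, MYO and RemoLV against Control, with a log2 fold change of -1.20 ± 0.12 (SE), adjusted p = 1.47e-06 in DOX, -1.09 ± 0.12 (SE), adjusted p = 4.34e-06 in MYO, -0.96 ± 0.14 (SE), adjusted p = 3.28e-05 in RemoLV and -0.95 ± 0.11 (SE), adjusted p = 3.42e-06 in DOX and MYO against Hyper. POMP under the table names had -0.20 in DOX, -0.16 in MYO and 0.96 in RemoLV against Control, and USP14 -0.21, -0.16 and 0.92. POMP had a mean of 60.7 CPM in DOX and 139 CPM in Control. USP14, a deubiquitinase of the 19S particle, had -1.10 ± 0.10 (SE), adjusted p = 6.58e-07 in DOX and -0.92 ± 0.09 (SE), adjusted p = 8.5e-07 against Hyper. Of 7 interferon and class I genes tested, 4 were higher and 0 lower in DOX, 1 higher and 1 lower in MYO, 0 higher and 1 lower in RemoLV, and 5 higher and 0 lower in DOX and MYO against Hyper (15.8% of all genes higher). The 1 of 7 in MYO was below the share of all genes, and under the table names 1 was higher in DOX, 4 in MYO and 4 in DOX and MYO against Hyper. Of the 4 in DOX, IRF1 and TAP2 lost the call with only the groups compared (log2 fold change 0.82 and 0.68, edgeR adjusted p = 0.0832 and 0.0509) and without Control replicate 2 (0.58 and 0.45, adjusted p = 0.0829 and 0.0719), and none kept it under the table names. TAP1 and TAP2, the peptide transporter of class I presentation, had log2 fold changes of 0.92 ± 0.20 (SE), adjusted p = 0.00205 and 0.89 ± 0.19 (SE), adjusted p = 0.00169 against Hyper. IRF1, an interferon-responsive transcription factor, had 0.91 ± 0.24 (SE), adjusted p = 0.00715, and NLRC5, the class I transactivator, had 0.74 ± 0.24 (SE), adjusted p = 0.0242. The last call was lost without Hyper replicate 1 (0.45, adjusted p = 0.193) or without Hyper replicate 2 (0.75, adjusted p = 0.0735), and with a replicate block (0.66, adjusted p = 0.0751).

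Levels between genes were compared as mean CPM per kilobase of RefSeq exons over all 19 libraries. PSMB4 was at 114, PSMB1 at 107, PSMA7 at 104 and PSMB7 at 102. Their order differed between groups: PSMB7 was highest in Control at 132, PSMB1 in Hyper at 137 and PSMA7 in DOX at 106, where PSMB4 was at 104. The immunoproteasome genes were lower, with PSMB8 at 20.4, PSMB10 at 17.7 and PSMB9 at 8.41 on this scale. PSME4, which is long, was at 16.8 and PSME1 at 1.50. No other locus of Sscrofa11.1 matched the longest RefSeq transcript of any of 44 members at 95% identity or more over at least 50% of its length.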

How the data were processed

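RNA was sequenced from 19 samples labelled as left ventricle, 1 per pig. Per the labels and the methods of the study, the authors made poly(A) stranded libraries, used STAR and Sscrofa11.1 for alignment, and HTSeq 0.11.1 to assign reads to Ensembl genes. The deposited raw counts, of which 0 rows name no gene, were used for every test. The authors also deposited a table with log2 expression, used only for symbols and to compare names, and their DESeq2 log2 fold changes and adjusted p-values, which were not used.

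Counts were filtered with filterByExpr, scaled by TMM and fitted over all 19 libraries with edgeR 4.0.16 (R 4.3.3, limma 3.58.1), using the quasi-likelihood test with Benjamini-Hochberg adjustment over 13552 genes at 0.05. Replicate numbers name different pigs, but the deviations of all 3 same-numbered DOX and Control pairs correlated (r = 0.24, 0.16 and 0.12), so blocked values are given where they change a call. Over all 32 same-numbered pairs the median r was 0.007 and the range -0.25 to 0.24, which does not show that the numbers pair animals. Count ratios were compared by exact two-sided permutation tests. The scripts were tested on simulated data. True log2 changes of 0.5 were recovered in 17% of changed genes in DOX against Control and 5% in Hyper against Control. For changes of 1.0 these were 67% and 75%, so many changes of the size seen in the members would be missed. Alternatives were the names of the table, DESeq2 1.42.0, other scaling and filters, smaller fits, a replicate block and leaving out libraries. Transcripts were aligned to the genome with minimap2 2.31. Promoters and coordinates came from RefSeq for Sscrofa11.1.

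Named genes were the catalytic subunits, PSME1, PSME2, PSME4, PSMF1, PSMD14 and, in each comparison, the 3 called members with the largest fold change in each direction. Other members are given by counts and ranges. The members, lists and rules were chosen with earlier results of these data known. Depth was 9527710 to 20370209 counts. Intervals are the estimate plus or minus normal quantiles of the SE.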

Additional observations from a re-analysis of the deposited data

Results flagged for a closer look

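Among 32 groups of 5 libraries examined for a library far from the rest (16 genes in DOX and MYO), 2 stood out, and chance alone picks about 1 in 20. PSMD14 was at 44.1 CPM in DOX replicate 1, above the other 4 DOX libraries, and PSME2 was at 49.8 CPM in DOX replicate 5. DOX replicate 5 carries a MYO name in the table of the authors.

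The difference from Control differed between RemoLV and Hyper for 9 of the genes described, each by edgeR's test of RemoLV against Hyper, in which Control cancels. All 9 were lower in RemoLV, where 18.6% of all genes were called lower and 17.0% higher. The rule that chose genes for description took the 3 largest called falls in this comparison, PSME4, PSMC5 and PSMG4. Their place here was therefore fixed in advance. The log2 difference, RemoLV minus Hyper, was -1.03 for PSME4, -0.99 for PSMC5, -0.90 for PSMG4, -0.78 for PSMC3, -0.67 for PSMD14, -0.64 for PSMB6, -0.60 for PSMD1, -0.58 for PSMB7 and -0.58 for PSMA3. The PSMD14 call was lost without RemoLV replicate 3 (-0.49, edgeR adjusted p = 0.0646). The libraries labelled RemoLV are those with atrial light chain transcripts at high levels, and the part of this in the differences was not tested.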

How the results depend on the processing

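Of 65 called single-gene values, all kept their direction and call under DESeq2, RLE factors, no count filter and a filter of 10 counts in every library, and 43 of 43 that could be refitted did so without the libraries labelled RemoLV. With only the groups compared 62 kept the call, and without the DOX and MYO libraries that carry exchanged names (chosen after seeing the data) 64 did. Leaving out 1 library kept direction and call in 1221 refits and lost the call in 14. Library totals alone kept 39, lost 24 and reversed 2, the table names kept 15, lost 20 and reversed 30, and a replicate block kept 63 and lost PSMB9 in DOX (0.52) and NLRC5 in DOX and MYO against Hyper (0.66).

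Under the table names, members higher and lower were 2 and 1 in DOX against Control, 3 and 2 in MYO, 25 and 0 in RemoLV, 29 and 0 in Hyper, and 0 lower in RemoLV against Hyper. Reversed log2 fold changes against Control were, in DOX, MYO and RemoLV, 0.17, 0.12 and 0.53 for PSMB6, 0.12, 0.052 and 0.62 for PSMB7, 0.005, 0.13 and 0.69 for PSMC3, 0.11, 0.072 and 0.84 for PSMC5, 0.24, 0.14 and 0.83 for PSMD14 and 0.08, 0.021 and 0.87 for PSME4. They were 0.027 in DOX and 0.69 in RemoLV for PSMD1, and in RemoLV 0.64 for PSMA3, 0.69 for PSMG4, 0.96 for POMP and 0.92 for USP14. In RemoLV against Hyper they were 0.065 for PSMA3, 0.04 for PSMB7, 0.089 for PSMD1, 0.16 for PSMD14, 0.19 for POMP and 0.19 for USP14. The ratio differences, in the order PSMB8, PSMB9 and PSMB10, were -0.008, 0.33 and 0.082 in DOX, 0.24, 0.49 and 0.38 in MYO, -0.58, -0.58 and -0.77 in RemoLV, and -0.67, -0.74 and -0.76 in Hyper. These follow from exchanged libraries.

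With library totals alone, members higher and lower were 9 and 4 in DOX, 11 and 2 in MYO, 9 and 2 in RemoLV, 1 and 5 in RemoLV against Hyper, and 4 and 9 in DOX and MYO against Hyper, and 16 differed among the 5 groups. PSMB6 turned to 0.028 in DOX and 0.069 in MYO. DESeq2 gave 2 higher members in DOX and MYO against Hyper. Higher members in DOX fell to 1 with only the groups compared and without the exchanged libraries. In RemoLV against Hyper 1 was higher under those settings and with 10 counts in every library. The cause was not tested.

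Of 32 same-numbered pairs of libraries, 4 had deviations correlated above 0.1 (range -0.25 to 0.24), among them all 3 pairs of DOX and Control; in no other comparison did every pair pass. The labels name different pigs. With a replicate block, 1 member was higher and 23 lower in DOX, 1 and 22 in MYO, 0 and 24 in RemoLV, 1 and 28 in RemoLV against Hyper, and 1 and 30 in DOX and MYO against Hyper. The shares of all genes called in the blocked fit are not given here.

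Leaving out 1 library at a time, members lower ranged from 23 to 30 in DOX, 21 to 28 in MYO, 22 to 31 in RemoLV, 0 to 1 in Hyper, 22 to 30 in RemoLV against Hyper and 27 to 33 in DOX and MYO against Hyper. The shares of all genes called in these refits are not given here. Members higher ranged from 1 to 2 in DOX (1 without DOX replicate 4 or 5 or any Control library), 1 to 2 in MYO, 0 to 1 in RemoLV and 0 to 2 in Hyper (each upper value without Control replicate 2), 0 to 1 in RemoLV against Hyper (1 without DOX replicate 2 or 5) and 1 to 2 in DOX and MYO against Hyper (2 without DOX replicate 2 or Hyper replicate 3). Ratio differences ranged, for PSMB8, PSMB9 and PSMB10, from 0.60 to 0.87, 0.94 to 1.21 and 0.83 to 1.116 in DOX, from 0.56 to 0.68, 0.78 to 0.99 and 0.93 to 1.13 in MYO, from -0.11 to -0.04, -0.36 to 0.11 and -0.18 to 0.24 in Hyper, and from 0.71 to 0.82, 0.88 to 1.35 and 0.75 to 1.18 in DOX and MYO against Hyper. With 3 Control or Hyper libraries, most ratio tests lost their call when 1 was left out, where fewer arrangements remained. Against Hyper, the PSMB9 and PSMB10 ratios kept the call without Hyper replicate 2 or 3 (adjusted p = 0.0446 in exact permutation tests). They lost it without Hyper replicate 1, where the differences were smaller.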
